A study of Arabidopsis thaliana with 6 samples.

Results

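The xyloglucan endotransglucosylase/hydrolase (XTH) family of Arabidopsis thaliana was followed in 12-day-old seedlings of 3 genotypes. The hac1hac5 plants were homozygous for mutations in HAC1 and HAC5 (hac1-/-hac5-/-), 2 genes for CBP/p300-type acetyltransferases that act on histones. The med8med25 plants were homozygous for mutations in MED8 and MED25 (med8-/-med25-/-), whose products are parts of Mediator, a complex that bridges transcription factors and RNA polymerase II. Col-0 was the wild type, and each genotype had 2 RNA-seq libraries from whole seedlings grown on MS medium at 22 °C with 16 h of light and 8 h of dark. The sources used here do not name the insertions or other lesions behind the 4 mutant alleles. All 33 genes of the family, XTH1 to XTH33, were taken by gene ID out of 32548 gene IDs in the table, whatever their values. The family was taken up with its changes in both mutants already known, so counts and folds against Col-0 describe these libraries and nothing is read from how they compare with other genes.

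Xyloglucan is the main hemicellulose of the primary wall in Arabidopsis, and it binds to and links cellulose microfibrils. XTH enzymes cut a xyloglucan chain and either rejoin the cut end to another chain, the endotransglucosylase activity, or pass it to water, the hydrolase activity. They act in walls that are growing, maturing or responding to mechanical load, and XTH22, also named TCH4, is the member known from the rise of its transcript after touch. The members are grouped here by number into group 1 (XTH1 to XTH11), group 2 (XTH12 to XTH26) and group 3 (XTH27 to XTH33).

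The active site shows what the members share and where a few part from the rest. It holds 3 acidic residues, glutamate, aspartate and glutamate, and 32 of the 33 coding sequences in the TAIR10.1 annotation of RefSeq carried all 3 codons. XTH11 carried 1 of the 3. A phenylalanine codon stood just before the last site codon in 28 members and was absent in 5, which were XTH29 to XTH33. The 30 bases around the site are printed below, in the sense of the gene, for members whose values are described further on and for XTH11, with the codons at the 3 site positions in capitals.
XTH22 (AT5G57560, chr5:23307839-23307868, minus strand): tgggacGAGataGATttcGAGtttttaggg
XTH18 (AT4G30280, chr4:14826569-14826598, minus strand): tgggatGAGattGATttcGAGttcttagga
XTH4 (AT2G06850, chr2:2764490-2764519, plus strand): catgacGAGataGACtttGAGttccttgga
XTH7 (AT4G37800, chr4:17776854-17776883, minus strand): cgagacGAGcttGATtttGAGttcttagga
XTH15 (AT4G14130, chr4:8137782-8137811, minus strand): catgacGAGataGACtttGAGtttctaggt
XTH31 (AT3G44990, chr3:16447882-16447911, minus strand): cacgatGAGgtcGATatcGAGtttctaggg
XTH33 (AT1G10550, chr1:3480306-3480335, minus strand): cacgacGAGataGACataGAAttgttgggt
XTH11 (AT3G48580, chr3:18007737-18007766, plus strand): catgatGAGctcTGTttcCAGatcttggga
All but XTH11 among these lines show a glutamate, an aspartate and a glutamate codon in capitals, and XTH11 keeps the glutamate codon that comes first.

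Depth, as whole reads recovered from the deposited values, ran from 24.9 to 36.8 M reads per library, with the first med8med25 library the shallowest. Values are given as the authors' normalized counts. By the recovery of reads, which was run within each genotype, these are reads adjusted to a common library of 32.6 M. They are then not divided by gene length. The sources used here do not state this adjustment. Separate plants or cultures behind the 2 libraries of a genotype are not stated anywhere in the sources, so the p-values reflect the spread between these libraries alone, and that spread may be technical. Growth or harvest conditions that differed between genotypes cannot be told apart from the mutations, and in whole seedlings fewer cells of a type and less RNA per cell cannot be told apart. The targeted genes were read first. MED8 was at 307.1 and 322.9 normalized counts in med8med25 and 846.6 and 855.3 in Col-0, and MED25 was at 253.8 and 302.4 in med8med25 and 1236 and 1227 in Col-0. HAC1 was at 2342 and 2875 in hac1hac5 and 3385 and 3529 in Col-0 (log2 change -0.41, adjusted p = 0.011), and HAC5 was at 800.7 and 1087 in hac1hac5 and 1233 and 1190 in Col-0 (log2 change -0.38, adjusted p = 0.05, not called). HAC1 and HAC5 transcripts were thus 1.33-fold and 1.28-fold lower in hac1hac5, and they check the hac1hac5 label only in part, because reads on either side of a lesion can remain.

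Of the 33 members, 30 passed the filter of at least 1 normalized count in at least 2 libraries and were tested. XTH1 and XTH2 had no read in any library, and XTH3 had 1 read, in the second hac1hac5 library. A count of 0 allows up to 3 reads, or 2.58 to 3.97 normalized counts depending on the library.

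In Col-0 the family was led by XTH4, a member known from growing and vascular tissue. Per kb of exon, the Col-0 mean was 7730 normalized counts for XTH4, 5360 for XTH7, 3110 for XTH6, 3070 for XTH27 and 3000 for XTH24. The order of XTH6, XTH27 and XTH24 is not resolved, since their libraries overlap at 2768 and 3457, 3126 and 3008, and 3366 and 2638 per kb. XTH22 had rank 10 of the 33 in Col-0, at 1198 and 973.6 normalized counts per kb. At the low end, XTH29 had 5.562 and 9.251 per kb in Col-0.

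The makeup of the family differed between the genotypes. XTH22 made up 21.5% and 28.6% of the summed per-kb level of the family in the hac1hac5 libraries, 6.48% and 12.9% in the med8med25 libraries, and 3.34% and 2.69% in the Col-0 libraries. The 3 genotypes did not overlap in this share. XTH22 had rank 1 of the 33 in hac1hac5 and rank 5 in med8med25. The rank in med8med25 is not resolved, since XTH22 was at 2761 and 4301 per kb there and XTH24, at rank 4, at 4996 and 2095. Summed over all members, the per-kb level was 25860 and 30340 in hac1hac5, 42570 and 33410 in med8med25, and 35830 and 36170 in Col-0. Without XTH22 the sum was 20290 and 21670 in hac1hac5, 39810 and 29110 in med8med25, and 34630 and 35190 in Col-0. The hac1hac5 libraries lay below both Col-0 libraries in either sum, and the med8med25 libraries lay on both sides of them. Of all reads, XTH genes took 0.123% and 0.14% in hac1hac5, 0.183% and 0.157% in med8med25, and 0.145% in each Col-0 library.

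**Figure D1:**
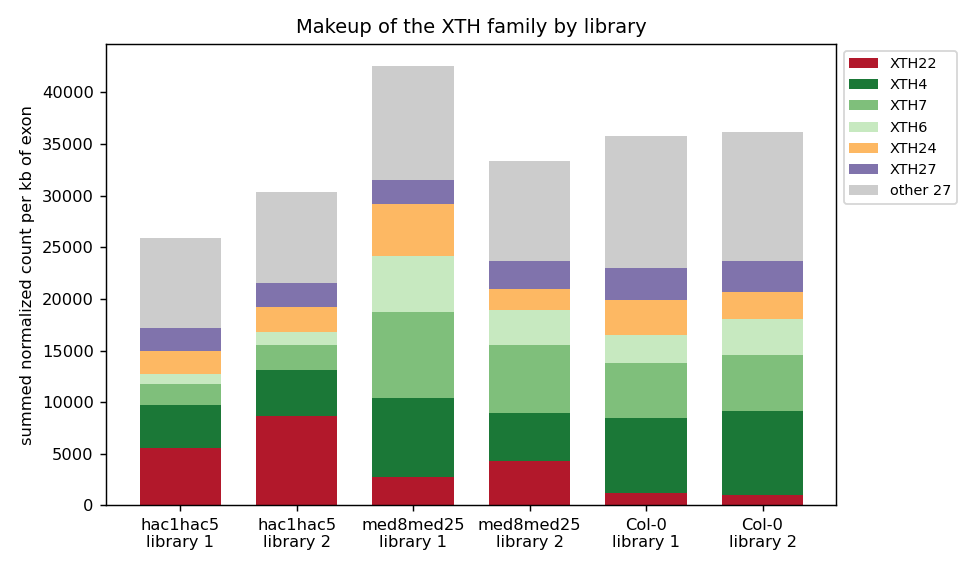
Summed normalized count per kb of exon (vertical axis) for the XTH family in each of the 6 libraries, with the 6 leading members coloured and the other 27 in grey. The red part, XTH22, makes up 21.5% and 28.6% of the hac1hac5 bars and 3.34% and 2.69% of the Col-0 bars.

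The effect of mutating HAC1 and HAC5 was examined first, by setting hac1hac5 against Col-0. In hac1hac5, 17 of the 30 tested members were lower and 4 were higher at an adjusted p under 0.05, and 9 were not called. Of all 23898 genes tested, 21% were called lower and 17.4% higher, 38.4% in all. With a log2 change of at least 1 as well, 11 members were lower and 2 higher, beside 5.53% and 7.15% of all genes. The median log2 change was -0.63 over the tested members and -0.02 over all genes tested. Group 1 had 6 lower and 0 higher members of 8 tested (median -1.05), group 2 had 7 lower and 3 higher of 15 (median -0.56), and group 3 had 4 lower and 1 higher of 7 (median -0.33). With scaling to total counts, which moves the median log2 change of all genes by 0.18, 13 members were lower and 4 higher, beside 2874 genes lower and 6017 higher of the 23747 then tested, where the deposited scaling gave 5010 lower and 4156 higher. Without the first Col-0 library, 11 members were lower.

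The higher members were XTH22, XTH18, XTH19 and XTH30. XTH22 was at 8850 and 13790 normalized counts in the hac1hac5 libraries, against 1905 and 1548 in the Col-0 libraries, so both hac1hac5 libraries lay far above Col-0. Its mean was 6.56-fold higher (log2 change 2.68, SE 0.24, adjusted p = 7.7e-05). XTH18, a root-expressed member, was at 1664 and 2102 in hac1hac5, against 538.5 and 465 in Col-0 (log2 change 1.90, SE 0.14, adjusted p = 2.9e-05). The groups did not overlap, and the mean was 3.75-fold higher. With 2 libraries per genotype, lack of overlap is a weak criterion here and elsewhere. It also held for members not called, such as XTH28 (log2 change -0.08), and its share over all genes was not computed. XTH19, its neighbour on chromosome 4, was at 1328 and 1463 in hac1hac5, against 791.7 and 696.8 in Col-0 (log2 change 0.91, adjusted p = 0.00012). XTH30 changed least among them, with a log2 change of 0.36, and its call was lost without the second Col-0 library (0.30) or the second hac1hac5 library (0.31). XTH18 and XTH19 share 50-base windows, with 98.4% of the windows of each being unique in the genome.

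The largest decrease in hac1hac5 was that of XTH33, a member predicted to be held in the membrane. It was at 19.1 and 12.71 normalized counts in hac1hac5, against 200.1 and 198.6 in Col-0, a mean 12.5-fold lower (log2 change -3.59, SE 0.53, adjusted p = 0.0011). These values rest on 21 and 15 reads in hac1hac5 and on 207 and 185 reads in Col-0. Every other member named in this paragraph and the next was also lower in both hac1hac5 libraries than in either Col-0 library. XTH16 (AT3G23730) was at 149.2 and 131.4 in hac1hac5, against 783.7 and 846.6 in Col-0 (log2 change -2.53, SE 0.17, adjusted p = 1.5e-05). XTH8 (AT1G11545) was at 238.6 and 206.2 in hac1hac5, against 1308 and 1241 in Col-0 (log2 change -2.52, SE 0.13, adjusted p = 4.5e-06). XTH15, known from its rise in shade, was at 277.1 and 282.5 in hac1hac5, against 1416 and 1548 in Col-0 (log2 change -2.40, SE 0.15, adjusted p = 1.1e-05). These 3 fell by between 5.3-fold and 5.81-fold. XTH15 overlaps AT4G14120 over 31.6% of its exon bases, and 71.2% of its 50-base windows are unique. AT4G14120 was at 45.07 and 48.29 in hac1hac5 and 51.17 and 59.99 in Col-0, far below XTH15, and without a stated strand setting reads of the 2 genes cannot be told apart where they overlap.

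The most abundant members of group 1 fell by less. XTH4 was at 6653 and 7244 normalized counts in hac1hac5, against 11790 and 13170 in Col-0 (log2 change -0.84, SE 0.19, adjusted p = 0.0096). XTH7 was at 2649 and 3119 in hac1hac5, against 6807 and 7004 in Col-0 (log2 change -1.26, SE 0.12, adjusted p = 0.00012). XTH6 (AT5G65730) was at 1405 and 1817 in hac1hac5, against 4069 and 5081 in Col-0 (log2 change -1.51, SE 0.22, adjusted p = 0.00095). In all 3 the hac1hac5 libraries lay below Col-0, and XTH4 was no longer called when either Col-0 library 2 (-0.76) or hac1hac5 library 1 (-0.78) was left out. XTH9 (AT4G03210) was at 1290 and 773.7 in hac1hac5, against 2586 and 2803 in Col-0 (log2 change -1.43, adjusted p = 0.0012), and its hac1hac5 libraries were themselves 1.67-fold apart. XTH31, a group 3 member with hydrolase activity, was at 919.7 and 979.3 in hac1hac5, against 2075 and 2121 in Col-0 (log2 change -1.14, SE 0.08, adjusted p = 1.9e-05).

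Among weakly expressed members of group 2, some of them known from roots and root hairs, XTH12, XTH26 and XTH21 also fell in hac1hac5. XTH13 (log2 change -0.08), XTH25 (-0.52), XTH20 and XTH23 were not called. XTH12 (AT5G57530) was at 117.6 and 96.87 normalized counts in hac1hac5, against 234.9 and 210.5 in Col-0 (log2 change -1.05, adjusted p = 0.0017). XTH26 (AT4G28850) was at 93.67 and 107.9 in hac1hac5, against 268 and 186.2 in Col-0 (log2 change -1.14, adjusted p = 0.015). XTH21 (AT2G18800) was at 40.56 and 43.11 in hac1hac5, against 94.8 and 77.47 in Col-0 (log2 change -1.02, adjusted p = 0.009). The groups did not overlap in any of the 3. Of the 50-base windows of XTH21, 92.9% are unique, and the rest are shared with AT2G12660 or other places in the genome. XTH26 was no longer called when Col-0 library 1 (-0.88), hac1hac5 library 1 (-1.04) or hac1hac5 library 2 (-1.25) was left out, nor was XTH21 when Col-0 library 1 (-0.87) or hac1hac5 library 1 (-0.98) was left out. The other lower members, XTH10, XTH14, XTH17, XTH27 and XTH32, changed by -0.33 (XTH32) to -0.96 (XTH17). Of these, XTH10, XTH14, XTH27 and XTH32 were no longer called without the first Col-0 library (-0.91, -0.44, -0.40 and -0.28) or with scaling to total counts (-0.65, -0.37, -0.25 and -0.15). XTH10 and XTH32 also lost their calls when Col-0 library 2 was left out (-0.73 and -0.38), XTH10 when hac1hac5 library 1 was left out (-0.64) and XTH32 when hac1hac5 library 2 was left out (-0.29). The 9 members not called ran from -0.71 in XTH20 to 0.66 in XTH23. With either med8med25 library left out, the hac1hac5 and Col-0 values stay, but the shared spread, the genes tested and the adjustment of p-values change. XTH20, XTH23 and XTH24 were then called at the same log2 changes of -0.71, 0.66 and -0.35.

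**Figure D2:**
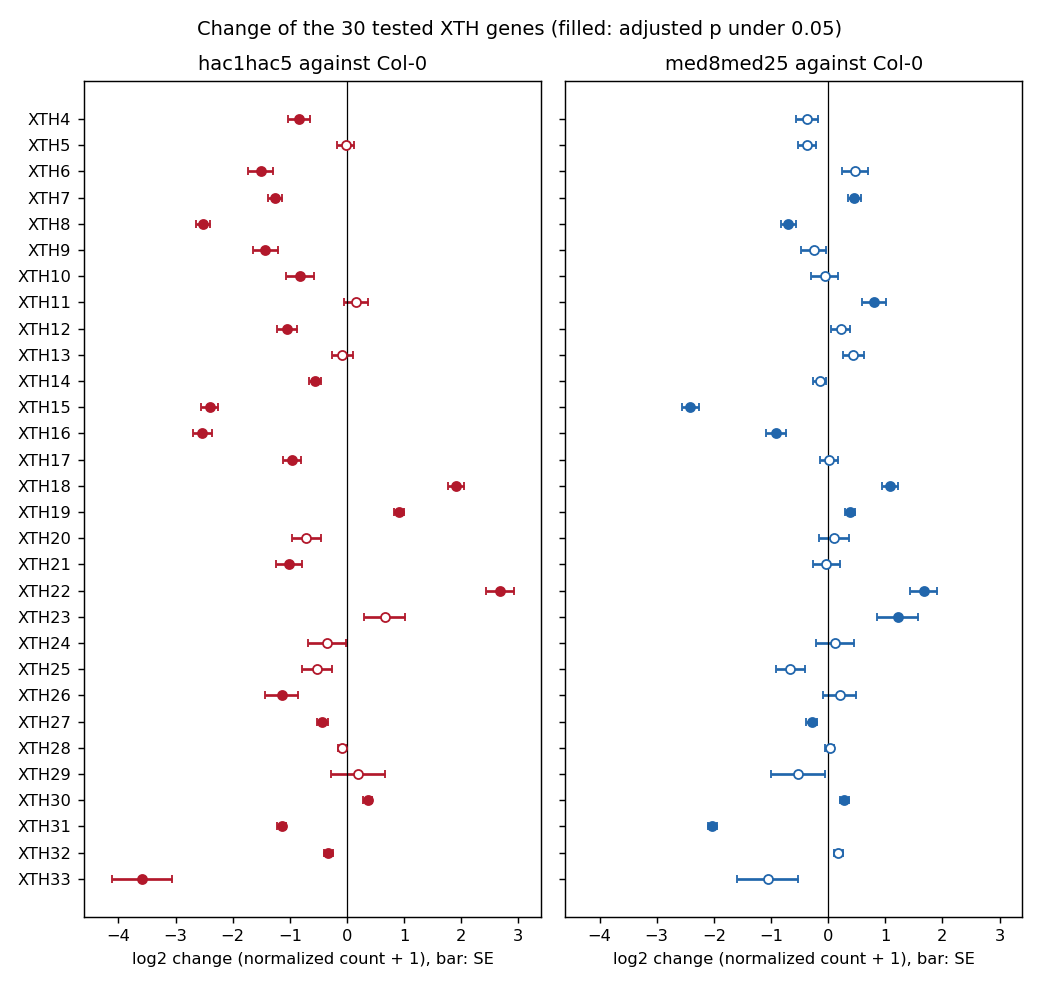
Log2 change with its SE (horizontal axis) of the 30 tested members in number order, for hac1hac5 against Col-0 and med8med25 against Col-0, with filled points for an adjusted p under 0.05. In hac1hac5, 17 filled points lie left of 0 and 4 right of it, and in med8med25, 5 lie left and 7 right.

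Mutation of MED8 and MED25 was examined in the same way, against the same Col-0 libraries that served for hac1hac5. A deviation in those libraries would shift both mutants the same way, so calls shared by the mutants are not independent. The share of all genes called alike in both mutants was not computed. In med8med25, 7 of the 30 tested members were higher and 5 were lower, and 18 were not called. Of all genes tested, 12.3% were called higher and 14.3% lower, 26.6% in all. With a log2 change of at least 1 as well, 3 members were higher and 2 lower, beside 3.31% and 4.07% of all genes. Group 1 had 2 higher and 1 lower members (median -0.15), group 2 had 4 higher and 2 lower (median 0.12), and group 3 had 1 higher and 2 lower (median -0.29). The median log2 change was 0.02 over the tested members and 0 over all genes tested. With scaling to total counts, which moves the median of all genes by 0.15, 9 members were higher and 4 lower, beside 5258 genes higher and 1989 lower, where the deposited scaling gave 2929 higher and 3421 lower. Without the first Col-0 library 3 members were higher and 3 lower, without the second 2 were higher and 3 lower, and without the first med8med25 library 8 were lower.

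The 4 members that rose in hac1hac5 rose here as well. XTH22 was at 4389 and 6838 normalized counts in the med8med25 libraries, against 1905 and 1548 in the Col-0 libraries, a mean 3.25-fold higher with no overlap (log2 change 1.67, SE 0.24, adjusted p = 0.0018). XTH18 was at 1194 and 958.6 in med8med25, against 538.5 and 465 in Col-0 (log2 change 1.09, SE 0.14, adjusted p = 0.0011). XTH19 and XTH30 changed by 0.38 and 0.28, and without the second Col-0 library neither was called (0.28 and 0.22). XTH30 was also not called when Col-0 library 1 (0.34) or either med8med25 library (0.28 each) was left out, or with the replicate block. Of the other higher members, XTH23 (AT4G25810) was at 660 and 285 in med8med25, against 165.1 and 210 in Col-0 (log2 change 1.22, SE 0.36, adjusted p = 0.039). Its med8med25 libraries were 2.32-fold apart, and it was no longer called when med8med25 library 1 (0.61), Col-0 library 1 (1.04), Col-0 library 2 (1.39) or either hac1hac5 library (1.22 each) was left out, with a pseudocount of 0.1, with no filter or with voom (1.16). XTH7 was at 10750 and 8413 in med8med25, against 6807 and 7004 in Col-0 (log2 change 0.46, adjusted p = 0.027), so it was higher here and lower in hac1hac5, but it was not called here when Col-0 library 1 (0.44), Col-0 library 2 (0.48) or med8med25 library 1 (0.28) was left out. XTH11, the member with 1 acidic codon at its site, was at 66.58 and 75.15 in med8med25, against 42.55 and 37.64 in Col-0 (log2 change 0.81, adjusted p = 0.023), and it was not called when Col-0 library 1 (0.89), Col-0 library 2 (0.72) or med8med25 library 2 (0.72) was left out.

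The lower members in med8med25 were XTH8, XTH15, XTH16, XTH27 and XTH31, all of them lower in hac1hac5 too. XTH15 was at 329.2 and 235.1 normalized counts in med8med25, against 1416 and 1548 in Col-0, a mean 5.25-fold lower (log2 change -2.41, SE 0.15, adjusted p = 3e-05). XTH31 was at 491.2 and 534.1 in med8med25, against 2075 and 2121 in Col-0, a mean 4.09-fold lower (log2 change -2.03, SE 0.08, adjusted p = 5.5e-06). In both genes the med8med25 and Col-0 libraries lay far apart. AT4G14120, which overlaps XTH15, was at 100.4 and 97.56 in med8med25 and 51.17 and 59.99 in Col-0. XTH16 was at 521.5 and 361.6 in med8med25, against 783.7 and 846.6 in Col-0 (log2 change -0.91, adjusted p = 0.0056), and XTH8 was at 884.5 and 693 in med8med25, against 1308 and 1241 in Col-0 (log2 change -0.70, adjusted p = 0.0055). The XTH16 call was lost without the second Col-0 library (-0.85) and the XTH8 call without the first (-0.66). XTH27 changed by -0.29, and its call was lost without any 1 of the 6 libraries except the second med8med25 library. It was also lost with no filter (-0.29), with scaling to total counts (-0.13) or by median of ratios (-0.27), and with the replicate block.

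Members not called in med8med25 ran from -1.06 in XTH33 to 0.47 in XTH6. XTH33 was at 188.8 and 47.79 normalized counts in med8med25, against 200.1 and 198.6 in Col-0 (adjusted p = 0.18), and its med8med25 libraries were 3.95-fold apart. Without the first of them XTH33 was called lower (-2.04, adjusted p = 0.002), as was XTH4 (-0.72, adjusted p = 0.0012), and XTH13 was called higher (0.66, adjusted p = 0.026). XTH6 was at 8019 and 4965 in med8med25, against 4069 and 5081 in Col-0, and XTH4 was at 12340 and 7552 in med8med25, against 11790 and 13170 in Col-0. The genotypes overlapped in XTH6 and XTH4. XTH9 was at 2597 and 1982 in med8med25, against 2586 and 2803 in Col-0 (log2 change -0.25). XTH12 was at 227.9 and 293.1 in med8med25, against 234.9 and 210.5 in Col-0, XTH26 at 186.7 and 350.9 in med8med25, against 268 and 186.2 in Col-0, and XTH21 at 100.2 and 70.1 in med8med25, against 94.8 and 77.47 in Col-0. They overlapped in these 4 as well. The spread between med8med25 libraries was wide in the family: 9 of 30 members were more than 1.5-fold apart in med8med25, 4 in hac1hac5 and 1 in Col-0, beside 13.7%, 11.5% and 10.8% of all genes tested.

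**Figure D3:**
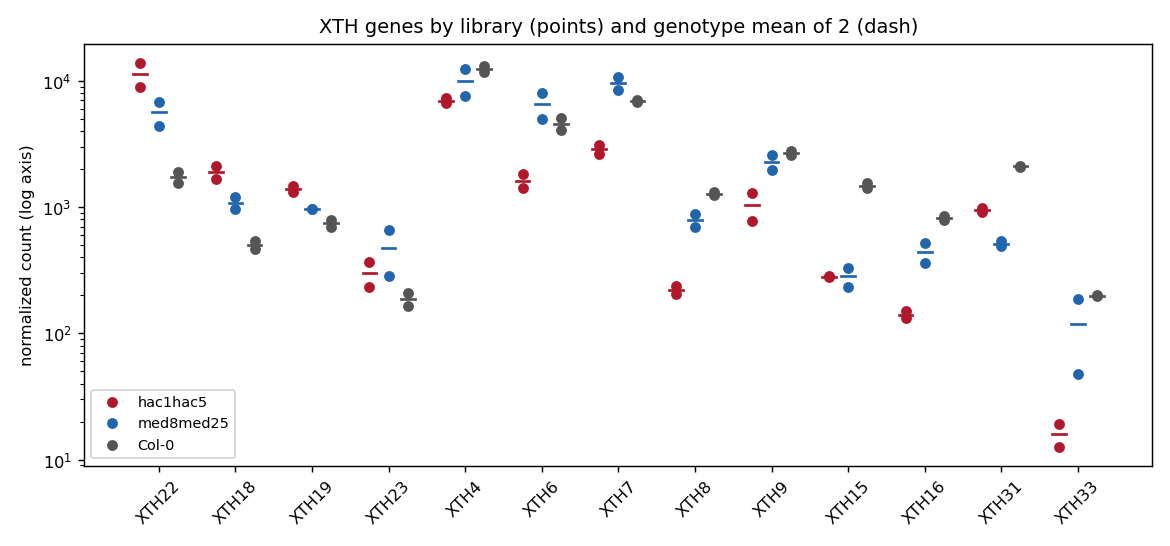
Normalized counts (log axis) of 13 members in each library, with dashes for the mean of 2 libraries per genotype. XTH22 and XTH18 are highest in hac1hac5 and lowest in Col-0, XTH15 and XTH31 are highest in Col-0, and the med8med25 points of XTH33 lie 3.95-fold apart.

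The difference between the mutants was tested directly, as med8med25 against hac1hac5, where Col-0 cancels. Of the 30 tested members 16 were higher and 4 lower in med8med25 than in hac1hac5, and 10 were not called. Of all genes tested, 20.9% were called higher and 20.5% lower, 41.4% in all. With a log2 difference of at least 1 as well, 8 members were higher and 1 lower, beside 4.49% and 6.84% of all genes. The median log2 difference was 0.52 over the tested members. XTH33 was 7.44-fold higher in med8med25 (log2 difference 2.54, SE 0.53, adjusted p = 0.006), XTH6 4.03-fold (1.98, SE 0.22, adjusted p = 0.00027), XTH8 3.55-fold (1.81, SE 0.13, adjusted p = 3.4e-05) and XTH7 3.32-fold (1.73, SE 0.12, adjusted p = 3.5e-05). The med8med25 libraries of XTH6, XTH7, XTH8 and XTH33 all lay above both hac1hac5 libraries. The size of the XTH33 difference rests on which med8med25 library is used, at 1.56 without the first and 3.52 without the second. The 4 members lower in med8med25 than in hac1hac5 were XTH22 (-1.01, adjusted p = 0.011), XTH31 (-0.89, adjusted p = 9.2e-05), XTH18 (-0.81, adjusted p = 0.0027) and XTH19 (-0.53, adjusted p = 0.0021). XTH31 and XTH15, which fell in both mutants, thus stood differently: XTH31 was at 491.2 and 534.1 in med8med25 and 919.7 and 979.3 in hac1hac5, while XTH15 was at 329.2 and 235.1 in med8med25 and 277.1 and 282.5 in hac1hac5 (log2 difference -0.01, interval -0.35 to 0.33). Without the first hac1hac5 library 9 members were higher in med8med25, and without the second the XTH22 (-0.69) and XTH33 (2.26) calls were lost.

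Several members are neighbours on a chromosome, and their changes are shown side by side. On chromosome 5, XTH12, XTH13, XTH25 and XTH22 lie on the minus strand with 1097, 686 and 565 bases between successive genes and 1 gene between XTH12 and XTH13. Their log2 changes in hac1hac5 were -1.05, -0.08, -0.52 and 2.68, and XTH13 and XTH25 were not called. In med8med25 they were 0.22, 0.44, -0.66 and 1.67. On chromosome 4, XTH23 and XTH14 are 363 bases apart, and XTH18 and XTH19 are 1500 bases apart with XTH24 5161 bases from XTH18. XTH18 and XTH19 were called higher in both mutants, and XTH24 was called in neither.

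**Figure D4:**
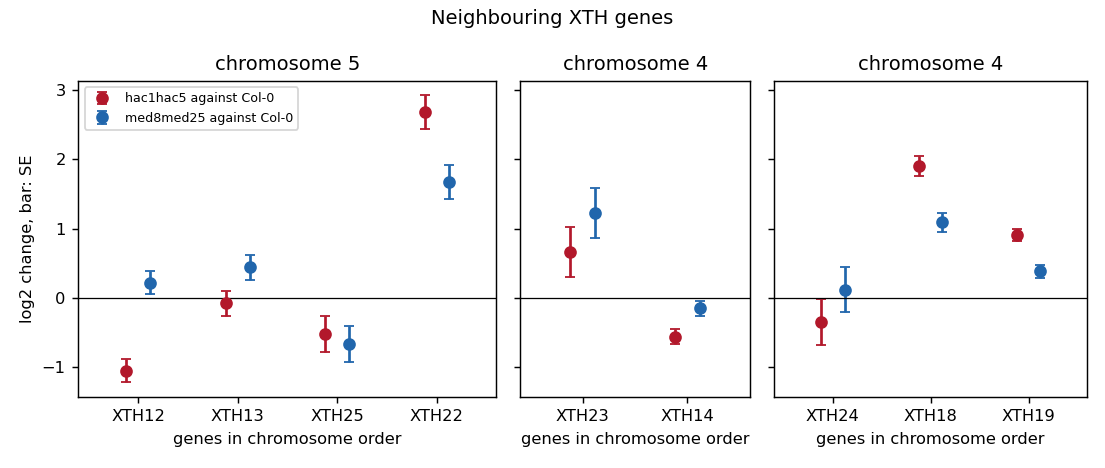
Log2 change with its SE (vertical axis) of neighbouring members in chromosome order, in hac1hac5 and in med8med25 against Col-0. XTH22 lies well above 0 in both mutants while XTH25 beside it lies at -0.52 in hac1hac5 and -0.66 in med8med25.

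The upstream sequences of XTH22 and XTH18, the members with the largest increases in hac1hac5, are shown because they can be read for known stress elements. The 250 bases before the annotated start of each gene in RefSeq's TAIR10.1 are given 5′ to 3′ in the sense of the gene, with capitals at matches to CGCGTT, an element of rapid stress response genes bound by CAMTA factors, and TTGACT, a form of the W-box bound by WRKY factors. Both strands were searched, and no match overlapped another.
XTH22 upstream (chr5:23308681-23308930, minus strand): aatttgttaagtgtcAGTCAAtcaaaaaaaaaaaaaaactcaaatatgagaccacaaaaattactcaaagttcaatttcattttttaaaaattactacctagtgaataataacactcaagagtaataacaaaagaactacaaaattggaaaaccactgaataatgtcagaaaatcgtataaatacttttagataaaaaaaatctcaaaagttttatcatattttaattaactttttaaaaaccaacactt
XTH18 upstream (chr4:14827212-14827461, minus strand): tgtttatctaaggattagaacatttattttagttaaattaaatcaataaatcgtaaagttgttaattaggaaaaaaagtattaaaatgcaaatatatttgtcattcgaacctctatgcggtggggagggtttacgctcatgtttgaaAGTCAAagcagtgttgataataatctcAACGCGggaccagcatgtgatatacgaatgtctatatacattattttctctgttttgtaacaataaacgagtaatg
TTGACT was found upstream of 2 of the 33 members, XTH18 and XTH22, and in 19.1% of 27443 promoters of the same length. CGCGTT was found upstream of XTH13, XTH18 and XTH20, and in 2.6% of promoters. XTH13 and XTH20 were called in neither mutant against Col-0. XTH19 and XTH30, the other members called higher in both mutants, had no match to any motif searched. A link between the motifs and the changes was not tested. With a window of 150 bases, TTGACT was found upstream of XTH18 alone and in 12.4% of promoters. CGCGTT was then found upstream of XTH18 and XTH20, and in 1.8% of promoters. The other motifs searched were CACGTG, the G-box, found in 0 members and 6.5% of promoters, TGTCTC, an auxin response element, in 2 members and 10.9%, CGTGTG and CGTGCG, forms of a brassinosteroid response element, in 4 and 0 members and 5.4% and 1.6%, and TTGACC, another W-box form, in 4 members and 12.2%. A match is a string of letters and was not tested for binding.

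Other wall genes were read beside the family from lists chosen with earlier results of these data known. The shares to set beside their counts, and beside those of the hormone and touch lists below, are those of all genes tested. These were 21% lower and 17.4% higher in hac1hac5 and 14.3% lower and 12.3% higher in med8med25. Among alpha-expansins, which loosen walls without cutting chains, 10 of 20 tested genes were lower and 1 higher in hac1hac5 (median log2 change -0.39), and 8 were lower and 2 higher in med8med25 (median -0.16). Scaling to total counts, or leaving out either Col-0 library, gave 5 lower alpha-expansins in med8med25. EXPA16 averaged 292.4 normalized counts in hac1hac5 and 295.2 in med8med25, against 1672 in Col-0 (log2 changes -2.52 and -2.55). EXPA8 averaged 3000 in hac1hac5 and 2092 in med8med25, against 12350 in Col-0. Among xyloglucan synthesis genes, the CSLC backbone synthases and the side-chain transferases, 4 of 13 were lower and 3 higher in hac1hac5, and 2 were lower and 0 higher in med8med25. With scaling to total counts 1 was lower and 3 were higher in med8med25, and with Col-0 library 2 left out 2 were lower in hac1hac5 and 0 in med8med25. MUR3, a galactosyltransferase, averaged 2553 in hac1hac5, against 1329 in Col-0 (log2 change 0.94, adjusted p = 0.0001), and XXT1, a xylosyltransferase, averaged 2223 in hac1hac5, against 1168 in Col-0. Of the 3 xyloglucan breakdown genes, XYL1 and BGAL10, which trim xyloglucan side chains, were lower in both mutants. AXY8 was called in neither, at log2 changes of 0.06 in hac1hac5 and 0.27 in med8med25. XYL1 averaged 11430 in hac1hac5 and 15380 in med8med25, against 28240 in Col-0.

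Growth hormone genes were mostly lower. All 12 auxin and growth genes were lower in hac1hac5 (median -1.70), and 10 were lower in med8med25 (median -0.75), or 6 with either Col-0 library left out. IAA29, an auxin-induced repressor gene, averaged 295.3 in hac1hac5 and 803.4 in med8med25, against 4906 in Col-0. The 4 brassinosteroid genes, which encode enzymes of the hormone's synthesis and are themselves repressed by it, were lower in hac1hac5 and 3 of them were lower in med8med25. BR6OX2 averaged 218 in hac1hac5 and 543.5 in med8med25, against 2559 in Col-0.

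Touch and rapid stress genes, like XTH22, were mostly higher in both mutants. All 9 listed genes were higher in hac1hac5 (median 4.36) and 7 were higher in med8med25 (median 2.36). CML38 and CML39 were not called in med8med25, at log2 changes of -0.67 and 1.36. ZAT10, a zinc-finger repressor gene, averaged 9124 in hac1hac5 and 1848 in med8med25, against 79.5 in Col-0. The summed level of the 9 genes was 52520 and 63620 in hac1hac5, 19880 and 16290 in med8med25, and 3259 and 3331 in Col-0. Both XTH22 and this sum were thus highest in hac1hac5 and lowest in Col-0. Between the med8med25 libraries they went opposite ways, since XTH22 was at 4389 in the first and 6838 in the second. The part of the touch genes' state in the XTH22 values was not tested.

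Root hair markers were mostly lower in hac1hac5, while 7 of the 9 were not called in med8med25 (median 0.13). The shoot marker sums of both mutants lay below those of Col-0. Of all genes tested, 21% were called lower and 17.4% higher in hac1hac5, and 14.3% lower and 12.3% higher in med8med25. The counts of these small lists are to be set beside those shares. Of 9 root hair genes, 8 were lower and 0 higher in hac1hac5 (median -0.80) and 2 were higher and 0 lower in med8med25. Their summed level was 3903 and 4264 in hac1hac5, 8555 and 9880 in med8med25, and 7800 and 6963 in Col-0, and every listed gene had reads in each library. EXPA7 and EXPA18, both lower in hac1hac5, are also counted among the alpha-expansins above. Of 10 other root genes, 3 were lower and 0 higher in hac1hac5 (1 lower with scaling to total counts or with Col-0 library 1 left out), and 2 were lower and 4 higher in med8med25. Their sum was 6136 and 6325 in hac1hac5, 7575 and 7158 in med8med25, and 7834 and 6979 in Col-0. Of 9 shoot genes, 4 were lower and 0 higher in each mutant, with sums of 1205000 and 1218000 in hac1hac5, 1430000 and 1148000 in med8med25, and 1740000 and 1821000 in Col-0. In hac1hac5, 7 shoot genes were lower with scaling to total counts, 8 with voom or with either med8med25 library left out, and 1 with Col-0 library 2 left out. In med8med25, 1 was lower with Col-0 library 1 left out and 0 with Col-0 library 2 left out. The part of these marker levels in the XTH changes was not tested.

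**Figure D5:**
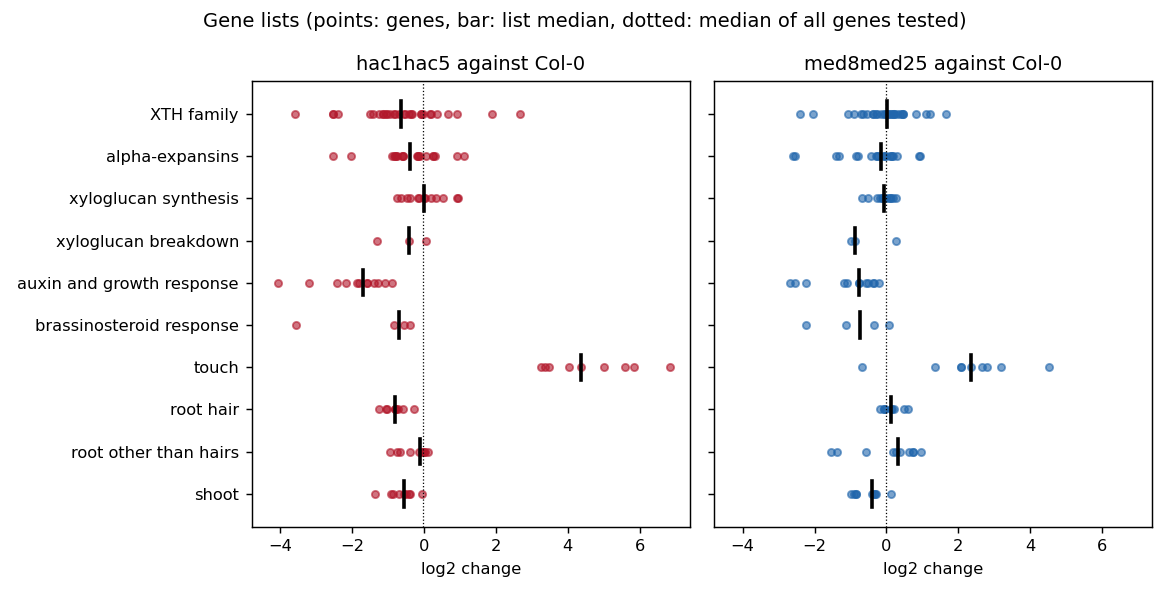
Log2 change (horizontal axis) of each gene of the XTH family and of the other lists in both mutants against Col-0, with a bar at the list median and a dotted line at the median of all genes tested. The touch list has a median of 4.36 in hac1hac5 and 2.36 in med8med25, and the XTH family has members on both sides of 0 in each.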

How the data were processed

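RNA-seq libraries of 12-day-old seedlings (50-base single-end reads) came from hac1hac5, med8med25 and Col-0, 2 each. The authors deposited a normalized signal per gene and library, not raw reads. The authors used HISAT2, featureCounts, edgeR and build TAIR10, per the submitters' processing notes, and versions, annotation and strand setting are not given in the sources used here. Whole reads were recovered for 100% of 195288 values (relative tolerance 1e-06) and used for depth (24.9 to 36.8 M) and for a voom alternative. Without molecular identifiers, PCR copies count as reads, so depth and zero limits cover counting error only.

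The main test was limma-trend (limma 3.58.1, R 4.3.3) on log2(normalized count + 1), a scale that understates the change of low genes, with genotype alone in the model and 1 spread shared by all 6 libraries. It covered 23898 genes with at least 1 in at least 2 libraries. P-values were two-sided and adjusted over all tested genes (Benjamini-Hochberg), with calls made at an adjusted p under 0.05. The fit was tested on simulated data. Alternatives were a pseudocount of 0.1, other filters, total-count and median-of-ratios scaling, voom, a replicate block and leaving out each library. Members and lists were chosen with earlier results of these data known. Values in every library are given for members called with a log2 change of at least 1 in either direction in a mutant, for the 3 with the highest mean and for XTH22. Other members appear by count and range, except a few named because a statement turns on them. For the other lists, the genes with the largest changes are named. Genomic sequences were read from RefSeq's TAIR10.1, whose nuclear chromosomes are those of TAIR10. EXPA19 had no row in the table analysed here.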

Additional observations from a re-analysis of the deposited data

Results flagged for a closer look

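For 20 members the change in med8med25 differed from the change in hac1hac5, by the direct limma test of the difference (adjusted p under 0.05). Each value is the log2 change in med8med25 minus that in hac1hac5. It was positive for XTH33 (2.54), XTH6 (1.98), XTH8 (1.81), XTH7 (1.73), XTH16 (1.63), XTH26 (1.34), XTH12 (1.27), XTH9 (1.18), XTH21 (0.99), XTH17 (0.97), XTH20 (0.81), XTH10 (0.76), XTH11 (0.64), XTH13 (0.52), XTH32 (0.51) and XTH14 (0.40). It was negative for XTH22 (-1.01), XTH31 (-0.89), XTH18 (-0.81) and XTH19 (-0.53). Of these calls, 11 were kept under all alternatives, and XTH10, XTH11, XTH13, XTH14, XTH20, XTH21, XTH22, XTH26 and XTH33 were each lost when at least 1 library was left out. XTH20 and XTH13 were called in neither mutant against Col-0. XTH7 was the only member called in opposite directions in the 2 mutants.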

How the results depend on the processing

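Among members called with all libraries and the settings of the report, none changed direction under any alternative run. Of the 21 calls in hac1hac5, 13 were kept under all alternatives and 17 under all but those that leave out a library. Of the 12 in med8med25 these numbers were 4 (XTH15, XTH18, XTH22 and XTH31) and 9, and of the 20 between the mutants 11 and 18. Leaving out a library gave 11 to 20 lower members in hac1hac5 (17 with all), 2 to 7 higher and 3 to 8 lower in med8med25 (7 and 5), 9 to 15 higher in med8med25 than in hac1hac5 (16), and 15 to 26 lower genes of the wall, touch and hormone lists in med8med25 (25). A genotype left with 1 library was assumed to vary like the others.

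Some members that were not called changed sign. Scaling to total counts gave XTH5 0.16, XTH13 0.10 and XTH28 0.11 in hac1hac5, and XTH10 0.10, XTH14 0.01 and XTH21 0.13 in med8med25. Median-of-ratios scaling gave XTH5 0.00 in hac1hac5, and voom on recovered reads gave XTH17 -0.01 in med8med25. Leaving out a library moved XTH5 between -0.14 and 0.10, XTH13 between -0.20 and 0.04 and XTH29 between -0.38 and 0.75 in hac1hac5. In med8med25 it moved XTH10 between -0.16 and 0.04, XTH17 between -0.15 and 0.16, XTH20 between -0.27 and 0.47, XTH21 between -0.29 and 0.22, XTH24 between -0.51 and 0.75, XTH26 between -0.26 and 0.65 and XTH28 between -0.07 and 0.12. Between the mutants it moved XTH15 between -0.25 and 0.23, XTH23 between -0.04 and 1.16, XTH24 between -0.15 and 1.1 and XTH25 between -0.53 and 0.25. The causes were not tested. XTH24 was called lower in med8med25 without the first med8med25 library and higher without the second.

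Library numbers did not pair the genotypes (r between deviations of -0.008, -0.04 and -0.096). With the replicate block, 18 members were lower (XTH25 joined them) and 4 higher in hac1hac5, and 5 lower and 5 higher in med8med25, where XTH23, XTH27 and XTH30 lost their calls and XTH25 gained one. XTH29 rests on 5 to 19 reads per library, and XTH33 on 21 and 15 reads in hac1hac5.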
